A study of Drosophila melanogaster with 6 samples.

Results

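Thioredoxins, peroxiredoxins and superoxide dismutases are the enzymes that take apart superoxide and hydrogen peroxide and keep protein thiols reduced. The set described here holds 10 genes, found in the deposited count table by gene name: Trx-2, Trxr-1, Jafrac1, Jafrac2, Prx3, Prx5, Prx6005, PHGPx, Sod1 and Sod2. They are 10 of 13189 genes with at least 1 count, and all 10 passed the filter on low counts that left 5639 genes for testing. The rule uses names and no expression values. The name Trxr-1 is that of the count table, and the current symbol is Trxr1.

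The transcripts were counted in progenitor cells of the adult Drosophila melanogaster midgut, the stem cells and their undifferentiated daughters, sorted for green fluorescence. There were 3 libraries from cells labelled Pex5-depleted and 3 from cells labelled wild-type, called control here. Each library came from 200 pooled guts and about 40000 sorted cells, and the gate was set with flies of the labels' genotypes esgGFP>w1118 and w1118, in which GFP is tied to escargot (esg), a gene active in progenitors. The labels do not give the means of depletion, the driver used in the depleted flies, their sex or their age. Pex5 is the receptor that brings enzymes into the peroxisome, an organelle that makes and destroys hydrogen peroxide. The Pex5-depleted-labelled libraries had 2573882 to 4793433 counts and the control libraries 3013033 to 3547768. Pex5 itself was counted 2, 21 and 41 times in the Pex5-depleted-labelled libraries and 8, 6 and 14 times in the control libraries. For Pex5 edgeR fitted a change of 1.24 on the log2 scale with an SE of 0.87 (quasi-likelihood test, Benjamini-Hochberg adjusted p = 0.607), so the targeted transcript did not show the labelled depletion. The libraries are therefore called Pex5-depleted-labelled below, and each direction rests on that label.

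Superoxide dismutases turn superoxide into hydrogen peroxide and oxygen. Peroxiredoxins and related peroxidases reduce that peroxide to water with a reactive cysteine, and thioredoxin restores the cysteine. Thioredoxin is in turn recharged by thioredoxin reductase at the cost of NADPH. Flies have no glutathione reductase, so the same reductase, through thioredoxin, also keeps their glutathione reduced. In the fly midgut the redox state of stem cells is known to bear on how often they divide.

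Of the 10 genes, the thioredoxin gene Trx-2 fell in the Pex5-depleted-labelled libraries and the other 9 did not pass the test. The level of Trx-2 was 0.447-fold that of the control libraries. Trxr-1, the reductase that recharges thioredoxin, and Prx5, a peroxiredoxin, were next in order of p, with log2 fold changes of 0.61 and -0.70. Sod1, the most abundant of the set, had a log2 fold change of 0.08, and the 95% interval reached from -0.21 to 0.38. The 1 called gene of 10 stands beside 1.65% of all 5639 tested genes called in either direction and 0.816% called lower (edgeR quasi-likelihood test, Benjamini-Hochberg adjusted p under 0.05). No member was called higher by edgeR, DESeq2 or limma-voom, and 1 was higher at an unadjusted edgeR p under 0.05. At that unadjusted level there were 3 members, against 13.2% of all tested genes.

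**Figure D1:**
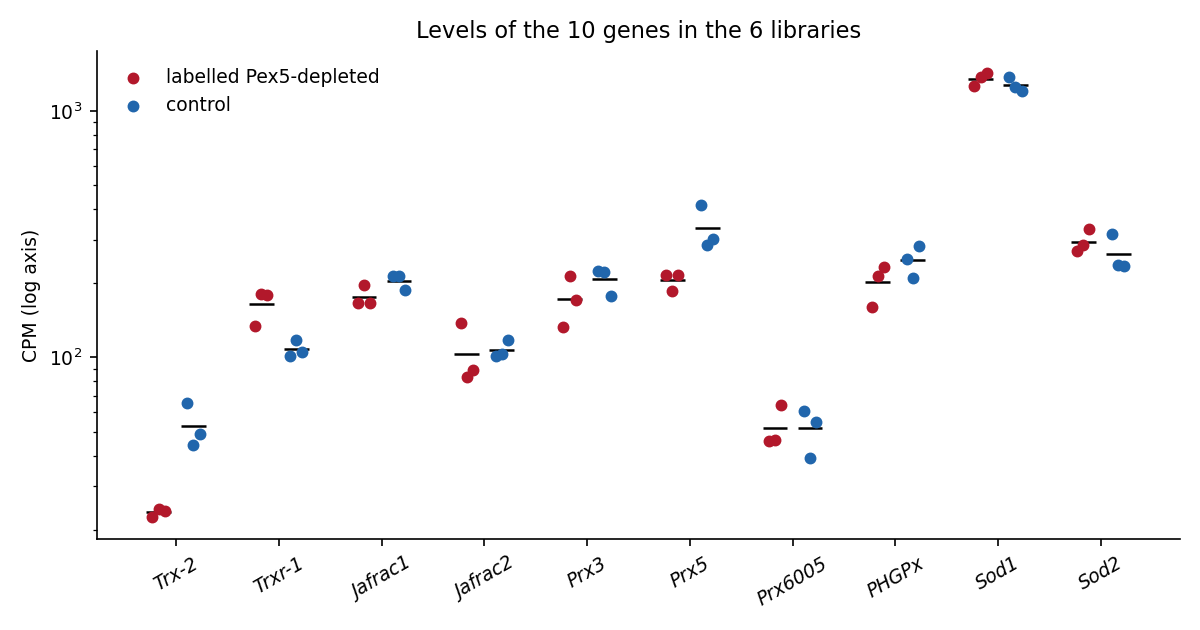
Counts scaled to library size (CPM, log axis) of the 10 genes in each library, with the Pex5-depleted-labelled libraries in red at the left and the control libraries in blue at the right, replicates 1 to 3 from left to right, and a black line at each mean. Trx-2 lies between 22.5 and 24.4 CPM in red and between 44.0 and 65.4 CPM in blue, and Sod1 stands above 1200 CPM in all 6 libraries.

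Trx-2 encodes the widely expressed cytosolic thioredoxin of the fly (FBgn0040070, dm6, chromosome 2L, 9613166 to 9616404, plus strand). It was counted 62, 116 and 70 times in the Pex5-depleted-labelled libraries 1, 2 and 3, and 241, 129 and 184 times in control libraries 1, 2 and 3. Scaled to library size and composition, this was 22.5, 24.4 and 23.9 CPM in the Pex5-depleted-labelled libraries, against 65.4, 44.0 and 49.1 CPM in the control libraries. The groups did not overlap. The Pex5-depleted-labelled replicates lay close together, at 23.6 ± 0.975 CPM, and the control replicates were at 52.8 ± 11.2 CPM with replicate 1 highest (SD, n = 3 each). For Trx-2 edgeR fitted a change of -1.16 on the log2 scale (SE 0.27, 95% interval -1.74 to -0.58), and the quasi-likelihood test gave an adjusted p of 0.0454. In bulk RNA of sorted cells, fewer cells that express a gene and less RNA of it per cell cannot be told apart.

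The call of Trx-2 sat close to the threshold. Left out in turn, the Pex5-depleted-labelled replicates 1, 2 and 3 gave adjusted p of 0.133, 0.138 and 0.139, and control replicates 1 and 3 gave 0.225 and 0.109 (edgeR, Benjamini-Hochberg). Without control replicate 2 it was 0.0457, and with limma-voom on all libraries 0.0539. The log2 fold change ran from -1.30 to -0.99 in these 6 fits and from -1.23 to -1.14 in the 8 other settings tried.

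Trxr-1 encodes the reductase that transfers electrons from NADPH to thioredoxin (FBgn0020653, chromosome X, 8242528 to 8248033, plus strand). It was counted 369, 865 and 525 times in the Pex5-depleted-labelled libraries, against 374, 344 and 395 times in the control libraries. That was 134, 182 and 179 CPM in the Pex5-depleted-labelled libraries and 102, 117 and 105 CPM in the control libraries. Each Pex5-depleted-labelled library was above each control library. A log2 fold change of 0.61 was fitted for Trxr-1 (SE 0.19, 95% interval 0.20 to 1.03). It did not pass, at an adjusted p of 0.162 by edgeR and 0.0535 by DESeq2 (Benjamini-Hochberg in each).

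Thioredoxin and its reductase thus had fitted changes of opposite sign, and their ratio can be read within a library without any scaling. There were 5.95, 7.46 and 7.50 Trxr-1 counts per Trx-2 count in the Pex5-depleted-labelled libraries 1, 2 and 3, against 1.55, 2.67 and 2.15 in control libraries 1, 2 and 3. The ranges were far apart. This ratio was chosen with the values of both genes known, so it is a description and no test was made of it.

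The peroxiredoxins, which reduce hydrogen peroxide, are known from several compartments of the cell. Prx5 (FBgn0038570, chromosome 3R, 18165442 to 18167273, minus strand) has a mammalian counterpart that is found in mitochondria, cytosol and peroxisomes. It was at 216, 186 and 216 CPM in the Pex5-depleted-labelled libraries, against 415, 285 and 302 CPM in the control libraries. The groups did not overlap, and control replicate 1 stood above the other control replicates. Prx5 had a fitted log2 fold change of -0.70 (SE 0.19, 95% interval -1.10 to -0.31). It did not pass, at an adjusted p of 0.0825 by edgeR. It passed with DESeq2 (adjusted p = 0.00629) and without a filter on low counts (0.00972 by edgeR), but not once when edgeR was refitted with any 1 of the 6 libraries left out (0.0584 to 0.326, Benjamini-Hochberg). Without control replicate 1 the log2 fold change was -0.52.

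The annotation gives the gene CG7215 the same start, end and strand as Prx5. The count table lists CG7215 separately, at 8.42 ± 3.10 CPM in the Pex5-depleted-labelled libraries and 7.35 ± 2.10 CPM in the control libraries (SD, n = 3 each). How the counting assigned reads to the 2 genes is not given in the sources used here, so the level of Prx5 is uncertain by reads that could belong to either.

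Jafrac1 (FBgn0040309, chromosome X, 13329824 to 13331994, plus strand) encodes a cytosolic peroxiredoxin. It was at 167, 197 and 166 CPM in the Pex5-depleted-labelled libraries, against 213, 213 and 189 CPM in the control libraries. The groups overlapped through Pex5-depleted-labelled replicate 2 and control replicate 3. Jafrac1 had a log2 fold change of -0.22 (SE 0.17) and a 95% interval from -0.58 to 0.15, at an edgeR adjusted p of 0.659.

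Prx3 (FBgn0038519, chromosome 3R, 17545222 to 17546531, minus strand) encodes a mitochondrial peroxiredoxin. Its level was 133, 215 and 172 CPM in the Pex5-depleted-labelled libraries, against 225, 223 and 178 CPM in the control libraries. The Pex5-depleted-labelled replicates were spread widely, and replicate 2 among them reached into the control range. The fit for Prx3 was -0.27 on the log2 scale (SE 0.20, adjusted p = 0.640 by edgeR), with a 95% interval of -0.70 to 0.16.

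Jafrac2 (FBgn0040308, chromosome 3L, 3042359 to 3044174, plus strand) encodes the peroxiredoxin of the endoplasmic reticulum and secretory route. That protein is also known for binding an inhibitor of apoptosis protein once released from the endoplasmic reticulum inside a dying cell. Jafrac2 stood at 138, 83.0 and 89.2 CPM in the Pex5-depleted-labelled libraries, against 102, 103 and 118 CPM in the control libraries. Pex5-depleted-labelled replicate 1 was the highest of all 6 libraries and replicates 2 and 3 were the lowest. Its fitted log2 fold change of -0.06 (SE 0.23, 95% interval -0.54 to 0.42, adjusted p = 0.951 by edgeR) had a sign that turned in 3 fits without 1 library. These were the fits without the Pex5-depleted-labelled replicates 2 and 3 and without control replicate 3 (0.077, 0.013 and 0.006).

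Prx6005 (FBgn0031479, chromosome 2L, 2877091 to 2878232, minus strand) belongs to the peroxiredoxins with a single reactive cysteine. Its level was 45.7, 46.2 and 63.9 CPM in the Pex5-depleted-labelled libraries, against 60.8, 39.2 and 54.5 CPM in the control libraries. The ranges lay on top of each other. Prx6005 had a log2 fold change of 0.01 (SE 0.26) and a 95% interval from -0.54 to 0.56, at an edgeR adjusted p of 0.996. That sign changed with the scaling, to -0.01 under RLE factors and -0.08 when no composition factor was used.

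PHGPx encodes a homologue of the glutathione peroxidases of mammals, and the fly enzyme is known to draw on thioredoxin (FBgn0035438, chromosome 3L, 3326265 to 3328626, plus strand). It was at 161, 215 and 232 CPM in the Pex5-depleted-labelled libraries, against 251, 211 and 283 CPM in the control libraries. The groups overlapped. For PHGPx the fitted change was -0.29 on the log2 scale (SE 0.19, adjusted p = 0.574 by edgeR), with a 95% interval of -0.70 to 0.12.

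Sod1 (FBgn0003462, chromosome 3L, 11112281 to 11113740, minus strand) encodes the copper and zinc superoxide dismutase of the cytosol. It was at 1268, 1369 and 1427 CPM in the Pex5-depleted-labelled libraries, against 1380, 1251 and 1206 CPM in the control libraries. The ranges overlapped, with an SD of 80.6 CPM in the Pex5-depleted-labelled libraries and 90.4 CPM in the control libraries. Its fitted change was 0.08 on the log2 scale (SE 0.14, adjusted p = 0.859 by edgeR). This SE was the smallest of the 10, and the 95% interval given above leaves room for a change of up to 0.38 on the log2 scale.

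Sod2 (FBgn0010213, chromosome 2R, 16772785 to 16773915, minus strand) encodes the manganese enzyme of the mitochondrial matrix. Its level was 269, 285 and 331 CPM in the Pex5-depleted-labelled libraries, against 317, 237 and 235 CPM in the control libraries. Control replicate 1 lay within the range of the other group. Sod2 had a log2 fold change of 0.16 (SE 0.18) and a 95% interval from -0.22 to 0.55, at an edgeR adjusted p of 0.752.

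**Figure D2:**
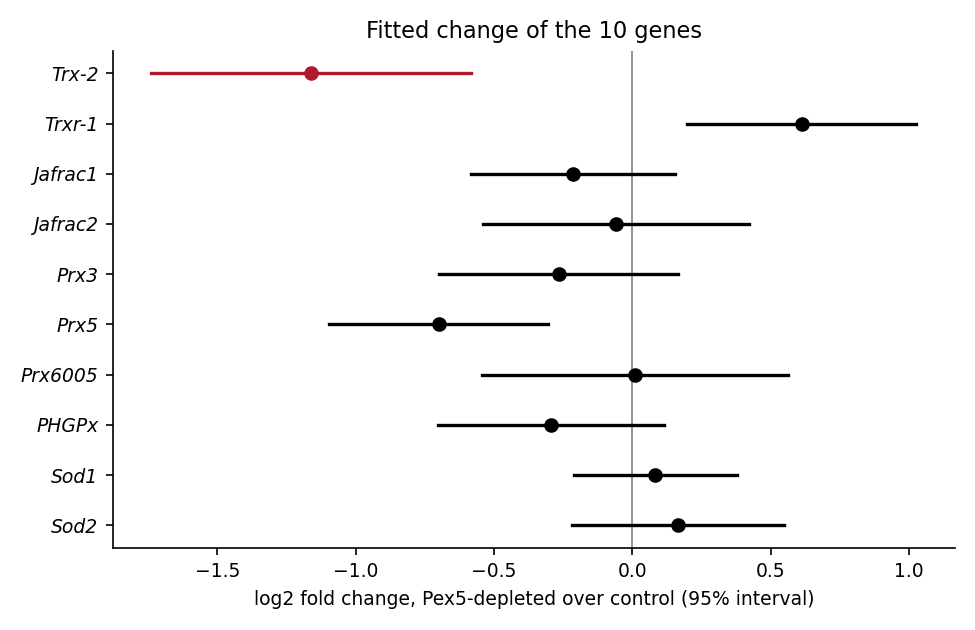
Log2 fold change of each gene, Pex5-depleted-labelled libraries over control libraries, with its 95% interval (edgeR quasi-likelihood fit, n = 3 each); red marks an adjusted p under 0.05. Trx-2 at -1.16 is the 1 gene in red, and the intervals of Trx-2, Trxr-1 and Prx5 do not include 0.

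As a set, 6 of the 10 fitted changes were below 0, as were 47.3% of those of all tested genes. The median log2 fold change was -0.14 over the 10 genes and 0.03 over all tested genes. In 3 members the groups did not overlap (Trx-2 and Prx5 lower, Trxr-1 higher). Among all tested genes this held for 19.2%, with 9.42% lower and 9.74% higher. The members were measured with a median SE of 0.19 on the log2 scale, against 0.47 over all tested genes and 0.23 over the 1293 tested genes within the members' range of mean CPM.

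**Figure D3:**
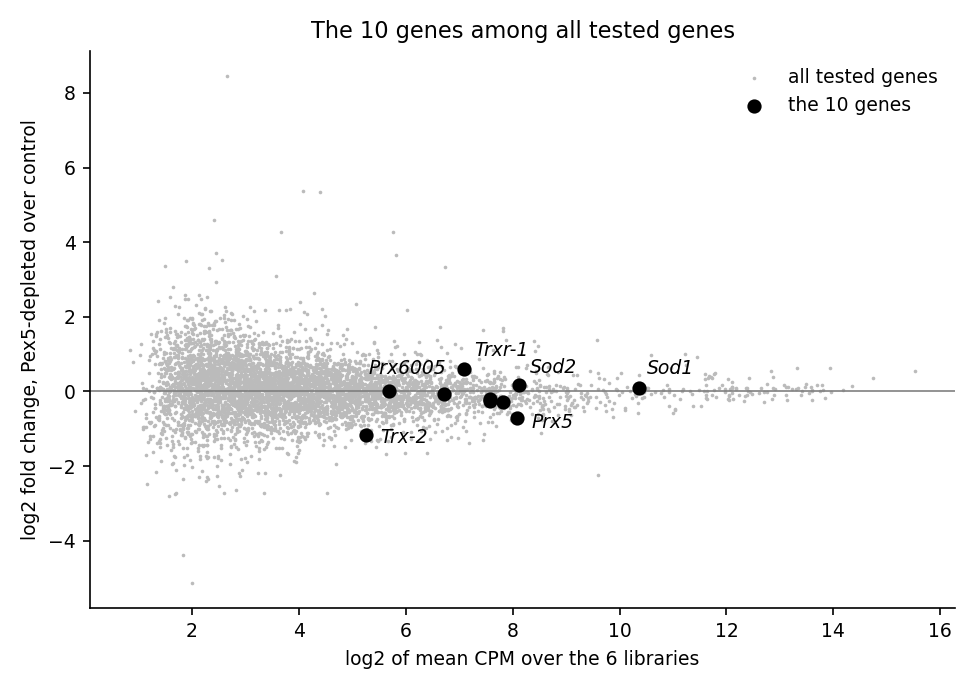
Log2 fold change (Pex5-depleted-labelled libraries over control libraries) against log2 of the mean CPM over the 6 libraries, with all 5639 tested genes in grey and the 10 genes in black, 6 of them named. Trx-2 at -1.16 lies among the lower grey points of its level, and Sod1 at 0.08 lies far to the right near 0.

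The 10 transcripts differ widely in level. The kit counts each captured molecule once near its 3' end, so CPM compares molecules. By mean CPM over the 6 libraries, the order was Sod1 at 1317, Sod2 at 279, Prx5 at 270 and PHGPx at 225. Below them came Prx3 and Jafrac1 at 191, Trxr-1 at 137, Jafrac2 at 106, Prx6005 at 51.7 and Trx-2 at 38.2 CPM. Division by length is not needed to compare molecules and places long transcripts lower. Divided by the longest annotated transcript, the order over the 6 libraries was Sod1 at 1792 CPM per kb, Sod2 at 275, PHGPx at 196, Prx3 at 188, Prx5 at 186, Jafrac1 at 177, Jafrac2 at 89.6, Prx6005 at 60.1, Trxr-1 at 60.0 and Trx-2 at 28.6 CPM per kb. Over the 6 libraries Sod1 came first, Sod2 second and Trx-2 last also without that division. In the control libraries alone, Prx5 averaged 334 CPM and Sod2 263 CPM, with Prx5 above Sod2 in each library. There Trx-2 averaged 52.8 CPM and Prx6005 51.5 CPM. In the Pex5-depleted-labelled libraries, Sod1 and Sod2 were each apart from the genes below them, and in the control libraries Sod2 overlapped with PHGPx. In both groups PHGPx and Prx3 overlapped in level per kb, as did Prx3 and Prx5, and Prx6005 and Trxr-1. The place of Prx5 beside Jafrac1 depended on that division. In the Pex5-depleted-labelled libraries Prx5 averaged 206 ± 17.5 CPM and Jafrac1 176 ± 17.4 CPM, with overlapping ranges, and in the control libraries Prx5 averaged 334 ± 70.6 CPM and Jafrac1 205 ± 14.3 CPM, with Prx5 above in each (SD, n = 3 each). Per kb, Prx5 at 128 to 149 CPM per kb was below Jafrac1 at 154 to 182 CPM per kb in the Pex5-depleted-labelled libraries. In the control libraries Prx5 at 197 to 286 CPM per kb overlapped with Jafrac1 at 175 to 198 CPM per kb.

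The 10 genes took 0.273%, 0.278% and 0.255% of the counts in the Pex5-depleted-labelled libraries, against 0.326%, 0.265% and 0.287% in the control libraries. Control replicate 1 had the highest share and the other 5 libraries overlapped. Of the counts of the set, Sod1 made up 49.6%, 48.9% and 49.2% in the Pex5-depleted-labelled libraries, against 44.1%, 45.9% and 44.3% in the control libraries. The Sod1 share of the set was thus higher in each Pex5-depleted-labelled library, while its CPM overlapped between the groups. The Sod1 to Sod2 ratio of counts was 4.71, 4.81 and 4.31 in the Pex5-depleted-labelled libraries, against 4.35, 5.28 and 5.13 in the control libraries, and these ranges overlapped.

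Among themselves the 10 genes did not follow 1 pattern over the 6 libraries. The 45 pairwise Pearson correlations of log2 CPM had a median of 0.03 and ran from -0.89, between Trxr-1 and Prx5, to 0.96, between Trx-2 and Prx5. Sod1 and Sod2 followed each other at 0.95 and Jafrac1 and Prx3 at 0.89. Trx-2 and Trxr-1 stood at -0.87. These values describe 6 libraries that share their depth and scaling across genes, and 20 of the 45 were below 0. They run over both groups and so include the difference between the groups. Covariation within a group was not tested. In control replicate 1, 8 of the 10 genes were above their group mean, and so were 8 of 10 in Pex5-depleted-labelled replicate 3. The number was 2 of 10 in Pex5-depleted-labelled replicate 1.

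Outside the set, among 1140 genes of at least 50 CPM on average, those closest to Trx-2 were CG32368 (r = 0.99), Tim10 (0.99) and SkpA (0.99). CG32368 averaged 63.3 CPM in the Pex5-depleted-labelled libraries and 157 CPM in the control libraries. Tim10, a small chaperone of mitochondrial protein import, averaged 199 CPM in the Pex5-depleted-labelled libraries and 336 CPM in the control libraries. Closest to Sod1 were Pfdn4 (r = 0.99), CG11077 (0.97) and deltaCOP (0.94). These are Pearson correlations of log2 CPM over 6 libraries, chosen as the highest of many and given with no test. They too include the difference between the groups.

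Genes that work next to the set were read from 8 lists of related functions. Of 40 genes with counts, 30 were tested and none passed by edgeR's adjusted p. At an unadjusted edgeR p under 0.05 there were 6 of 30, against 13.2% of all tested genes. DESeq2 called 1 of the 20 to which it gave an adjusted p, against 5.84% of 3561 genes with one. With limma-voom 0 of 30 were called, against 1.49% of all tested genes. The 1 was Pgd, which encodes the NADPH-producing 6-phosphogluconate dehydrogenase. Pgd stood at 10.9, 15.1 and 21.2 CPM in the Pex5-depleted-labelled libraries, against 28.8, 50.5 and 26.7 CPM in the control libraries. The groups did not overlap, and Pgd had a log2 fold change of -1.16 (SE 0.37). Its adjusted p was 0.161 in edgeR and 0.0486 in DESeq2.

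The list of NADPH supply had 6 of 6 tested genes with a fitted change below 0, against 47.3% of all tested genes. The list had a median log2 fold change of -0.13, and the SE of its genes ran from 0.25 to 0.74. It also holds l(1)G0156, now Idh3a, a subunit of the isocitrate dehydrogenase that uses NAD, at 42.9 ± 3.87 CPM in the Pex5-depleted-labelled libraries and 48.8 ± 8.79 CPM in the control libraries (SD, n = 3 each). Of the list of other thioredoxins 2 genes were tested. The thioredoxin-like gene Txl had a log2 fold change of 0.56 (SE 0.25) and CG8993 one of -0.37 (SE 0.19). The list of other peroxiredoxins and sulfiredoxin had 4 tested genes, all with fitted changes above 0 (median 0.88, SE from 0.33 to 0.75). Prx2540-1 and Prx2540-2 are close copies with few counts, so their separate values are uncertain. CG12896 lies beside Prx2540-1 on chromosome 2R and also had few counts, from 3 to 40 in a library, so its value is uncertain too. Prx2540-1 was at 10.5 ± 1.78 CPM in the Pex5-depleted-labelled libraries and 4.14 ± 3.23 CPM in the control libraries (SD, n = 3 each). The gene CG6762, now Srx, encodes the sulfiredoxin of that list and is not a peroxiredoxin. Most abundant of the list, CG6762 had a log2 fold change of 0.04 (SE 0.33).

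Cat, which encodes the catalase that breaks down hydrogen peroxide in peroxisomes, was at 32.1 ± 2.11 CPM in the Pex5-depleted-labelled libraries and 33.3 ± 10.2 CPM in the control libraries (SD, n = 3 each). It led the list of other dismutase and catalase genes in level, and CG9314 had the lowest p there, with a log2 fold change of 1.48 (SE 0.83). Gclm, the modifier subunit of the enzyme that starts glutathione synthesis, led its list in level and p, at 242 ± 31.2 CPM in the Pex5-depleted-labelled libraries and 181 ± 31.3 CPM in the control libraries (SD, n = 3 each; log2 fold change 0.41, SE 0.19). Of the methionine sulfoxide reductases, which repair oxidised methionine, SelR had a log2 fold change of -0.03 (SE 0.30) and Eip71CD one of 0.08 (SE 0.77). Among the regulators, maf-S, partner of the antioxidant transcription factor encoded by cnc, had a log2 fold change of 0.70 (SE 0.32), and dj-1beta one of 0.28 (SE 0.20). The ferritin subunit gene Fer1HCH, which stores iron, was at 488 ± 74.6 CPM in the Pex5-depleted-labelled libraries and 646 ± 94.9 CPM in the control libraries (SD, n = 3 each; log2 fold change -0.41, SE 0.17). Values of the NADPH oxidase genes Nox and Duox were not analysed here.

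Other transcripts moved with the group labels beside the set. Among all tested genes, edgeR called 0.833% higher and 0.816% lower (adjusted p under 0.05). The genes risen or fallen below were called by that test. The summed level of 13 heat shock genes was 36104 to 45613 CPM in the Pex5-depleted-labelled libraries and 16882 to 32981 CPM in the control libraries, with 5 of 12 tested genes risen. The 13 enterocyte markers found in the table summed to 800 to 830 CPM in the Pex5-depleted-labelled libraries and 316 to 648 CPM in the control libraries, with 2 of 9 tested genes risen. The 14 enteroendocrine markers summed to 566 to 1012 CPM in the Pex5-depleted-labelled libraries and 1078 to 3143 CPM in the control libraries, with 3 of 11 tested genes fallen. The sums of these 3 lists did not overlap between the groups. For the enterocyte markers this rested on the risen gene Jon25Biii. It stood at 96.2, 141 and 341 CPM in the Pex5-depleted-labelled libraries, against 8.69, 41.3 and 8.54 CPM in the control libraries. The enterocyte markers mex1, Myo31DF, alphaTry and betaTry overlapped between the groups and were not called. Hsp26 and Hsp22, the heat shock genes of highest mean level, overlapped between the groups and were not called (edgeR adjusted p 0.218 and 0.244). Orcokinin, the enteroendocrine gene of highest mean level, stood at 179, 288 and 344 CPM in the Pex5-depleted-labelled libraries. In control libraries it stood at 2175, 1424 and 234 CPM, so the groups overlapped. Orcokinin was still among the 3 fallen genes (edgeR adjusted p 0.0417). All 11 tested enteroendocrine genes had fitted changes below 0. The progenitor gene esg was present in every library, at 47.2, 53.0 and 65.9 CPM in the Pex5-depleted-labelled libraries and 29.6, 42.3 and 55.5 CPM in the control libraries. The 13 progenitor markers summed to 939 to 1418 CPM in the Pex5-depleted-labelled libraries and 823 to 1044 CPM in the control libraries. Transcripts of the mitochondrial genome took 8.04% to 9.31% of the counts in the Pex5-depleted-labelled libraries and 5.63% to 7.44% in the control libraries. The 9 visceral muscle markers summed to 37.4 to 62.5 CPM in the Pex5-depleted-labelled libraries and 61.4 to 72.6 CPM in the control libraries, most of it Tm1, with Act57B at 0 in the control libraries. The 5 haemocyte markers summed to 11.3 to 18.1 CPM in the Pex5-depleted-labelled libraries and 14.7 to 20.5 CPM in the control libraries, most of it crq. In that list Pxn was at 0 in the Pex5-depleted-labelled libraries and He at 0 in the control libraries. The part of these lists in the values of Trx-2, Trxr-1 and Prx5 was not tested.

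**Figure D4:**
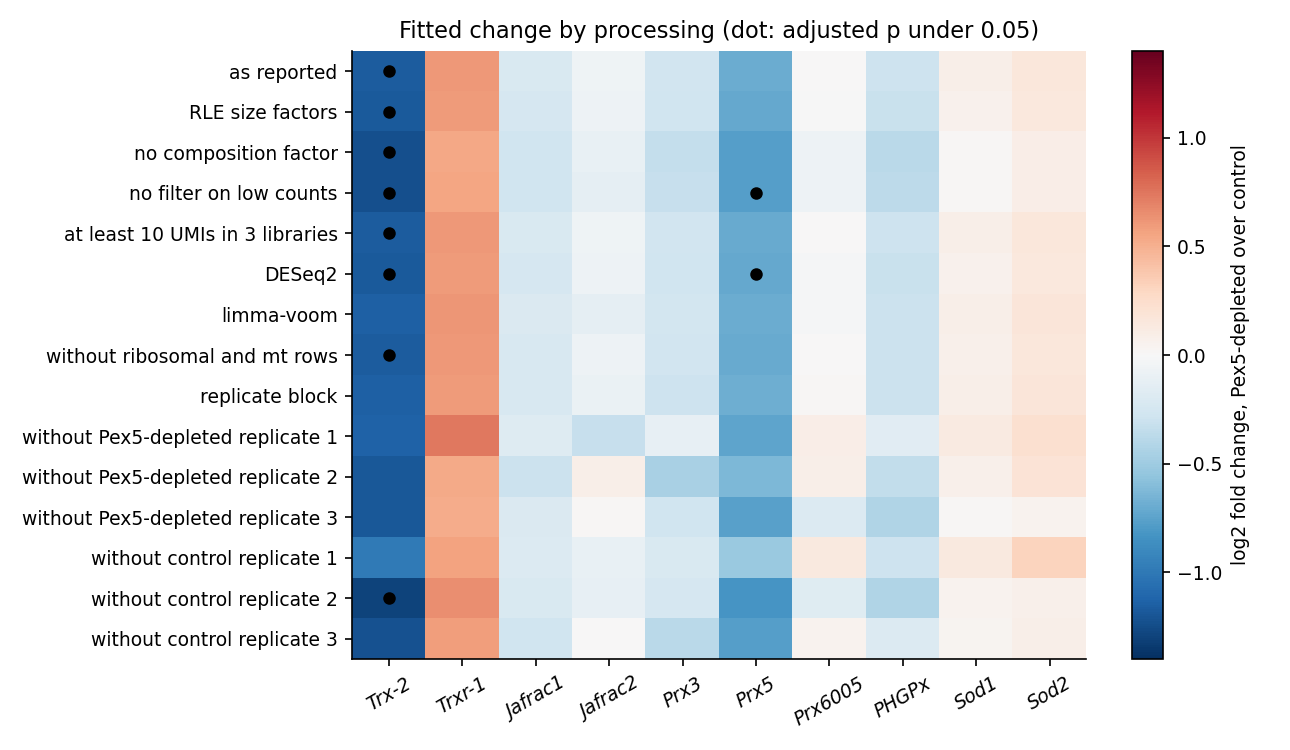
Log2 fold change (colour, Pex5-depleted-labelled libraries over control libraries) of the 10 genes as reported, in 8 other processing settings and in 6 fits without 1 library; a dot marks an adjusted p under 0.05. Trx-2 is negative in every fit shown and carries a dot in 8 of the 15, Prx5 is negative in every fit shown and carries 2 dots, and Prx6005 changes sign.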

How the data were processed

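Per the labels' protocols, midguts were dissociated with elastase for 1 h at 27 °C, GFP-positive cells were sorted, and poly-A transcripts were counted in 6 libraries with a QIAseq UPX 3' kit, which marks each molecule with a unique molecular identifier (UMI). The authors deposited a table with the UMI count of each gene in each well. Build dm6 and the tools StringTie, HISAT2 and DESeq2 are listed, with no role, per the submitters' processing notes. Reads mapping to several loci were dropped, per the deposited run metrics. Whether counting used strand is not given in the sources used here. At the 3' end, Jafrac2 overlaps scramb2, Prx6005 overlaps CG8814 and PHGPx lies within Strip, each on the opposite strand, so reads of these pairs may mix. The start and end of all 10 genes matched Ensembl release 115.

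The main test was edgeR 4.0.16's quasi-likelihood F test (R 4.3.3) on the unaltered counts. Libraries were scaled with TMM, genes of low count were dropped with filterByExpr at a minimum of 10, and the design held the group alone. P-values were adjusted by Benjamini-Hochberg over 5639 genes, and 0.05 was the threshold. The 6 spike-in rows, with 7 UMIs, and 29 columns that match no sample were left out. A count of 3 is worth 0.631 to 1.09 CPM, and this covers counting error only. SE is the size of the log2 fold change divided by the square root of F. Alternatives were RLE or no factors, other filters, DESeq2 1.42.0, limma-voom 3.58.1, removal of ribosomal protein and mitochondrial genome rows, a replicate block, and leaving out each library. The scripts were tested on simulated data. The labels call the replicates biological.

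The authors' deposited table of fold changes holds a signed score with p-values. Which samples it compares is not written in it, and it entered no test. The members, lists and markers were chosen with earlier results of these data known. All members are named, and from each related list the most abundant gene and the gene of lowest p. Prx2540-2, CG12896, esg, Tm1, crq, cnc, Hsp26, Hsp22, Orcokinin and the markers at 0 were named after their values were seen. The same holds for Jon25Biii, mex1, Myo31DF, alphaTry and betaTry.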

Additional observations from a re-analysis of the deposited data

How the results depend on the processing

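As reported, 93 genes were called, 1 of them a member. The count of all genes was 197 without a filter on low counts, 208 with DESeq2 and 58 with the replicate block, and 17 to 80 in the fits without 1 library. Members called numbered 2 without a filter on low counts and 2 with DESeq2 (Trx-2 and Prx5), 0 with limma-voom, 0 with the replicate block, and 0 to 1 in the fits without 1 library. With other filters the number of genes tested changed, and in the fits without 1 library the number of samples did. The cause of the other changes was not tested.

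In the fit with the replicate number as a block, Trx-2 had a log2 fold change of -1.14 with an adjusted p of 0.0803 (edgeR). Deviations from the group means correlated at -0.01, -0.05 and 0.01 between libraries with the same number, so the numbers gave no sign of pairing. The sign turned for Prx6005 with RLE factors (-0.0101), without a composition factor (-0.0755), with no filter (-0.0663), with DESeq2 (-0.0110) and with limma-voom (-0.0142). In the fits without 1 library it ran from -0.189 to 0.138 for Prx6005 and from -0.323 to 0.0771 for Jafrac2. The other 8 members had 1 sign in all 14 alternatives run. No sample group was large enough for a search for single outlying libraries. The interval of each member sets what 3 libraries a group can show.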

Other observations

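The authors' deposited table of fold changes lists all 10 members with negative signed folds, between -9.63 for Prx5 and -2.55 for Prx3. For Sod1 the authors' deposited table gives a signed linear fold of -8.23 with a false discovery rate of 5.76e-147. On the log2 scale, which is a different scale, edgeR on the deposited counts gave a change of 0.08. Of 5424 tested genes found in the authors' deposited table, 4144 have a fold below 0 there, and 2736 have the sign that edgeR gave for Pex5-depleted over control. Which samples that table compares is not written in it, so its values are given without a direction.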
